A study of Mus musculus with 18 samples.

Results

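The genes described here are 32 mouse genes of fatty acid activation and beta-oxidation, taken as a list from the pathway and not from their values. They were 5 genes of the carnitine shuttle, 4 acyl-CoA synthetases, 5 acyl-CoA dehydrogenases, 3 genes of electron transfer, 6 of the mitochondrial cycle, 3 auxiliary genes for unsaturated chains, 4 peroxisomal genes and 2 regulators. All 32 were among the 22017 genes measured in the in vitro set, and 31 were among the 13195 genes measured in the bone marrow set, where Ehhadh was not analysed here. In the pathway annotation that the authors deposited with the tables, 20 of the 32 stood under fatty acid degradation, and Acad9, Etfa, Etfb, Etfdh and Decr1 had no pathway entry.

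A fatty acid is first joined to coenzyme A by an acyl-CoA synthetase. The carnitine shuttle then carries the long-chain acyl group into the mitochondrion, where a dehydrogenase, a hydratase, a second dehydrogenase and a thiolase shorten it cycle by cycle, and the electrons of the first step pass through the electron transfer flavoprotein to the respiratory chain. Peroxisomes shorten very long and branched chains by a parallel route. In bone marrow, fatty acid oxidation is known for its part in the maintenance of hematopoietic stem cells and as a fuel of leukemia cells.

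RNA was measured by bulk RNA sequencing of sorted mouse bone marrow cells that were homozygous knockout (KO), heterozygous knockout (HET) or wild type (WT) for Fabp4, which encodes a carrier of fatty acids that adipocytes and macrophages are known to use. The in vitro set, which the labels call sorted from vitro bone marrow, had 3 libraries of each genotype. The set sorted directly from bone marrow had 3 KO, 2 HET and 3 WT libraries, and its HET replicate 2 was not used here. The labels give no strain, age, allele design, sorted population or culture, and no treatment beyond the sort. The title names leukemia stem cells, but no label says which cells, if any, were leukemic. According to the design text, each genotype of a set came from 3 mice, but no label ties a library to a mouse. The p-values therefore cover only the spread seen among libraries, which may be technical.

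Fabp4 itself was at or near 0 in vitro in every genotype, with 0, 0 and 0 FPKM in KO cells, 0, 0.0676 and 0 FPKM in HET cells and 0, 0.0326 and 0.330 FPKM in WT cells, so it gave no firm check of the genotypes. FPKM are fragments per kilobase of transcript per 1 M mapped fragments. Fabp4 was not analysed here in bone marrow. All 6 leukocyte markers lay at FPKM of 1 or more in every library of both sets, and 4 adipocyte markers in the in vitro table summed to at most 0.857 FPKM. Depth, estimated from the steps of low values of single-exon genes, was 30.7 to 36.8 M fragments for the in vitro libraries. For those from bone marrow it was 3.95 to 35.6 M, where a whole factor between the estimate and the true depth cannot be told apart. The bone marrow libraries stood apart in their values at 0 and in how alike they were, and the cause was not tested. A set of 4667 genes lay at FPKM of 10 or more in every in vitro library and was also measured in the bone marrow set. These genes are called broadly expressed below, a name that rests on the in vitro set alone. Of them, 38.6% and 51.8% were listed at 0 in the HET bone marrow libraries and 9.90 to 21.9% in the KO and WT ones. Any 2 in vitro libraries ranked the genes alike (Spearman 0.962 to 0.970 across genes), and any 2 bone marrow libraries much less so (0.427 to 0.621).

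Start-site sequences are shown for 4 genes on which results below turn. They are Hadh, the single gene of the list whose level passed the test between genotypes in vitro, Hadhb, whose start lies next to that of its partner subunit Hadha on the opposite strand, and Etfa and Etfb, subunits of 1 protein with unlike levels. Of the 32 genes, 26 matched RefSeq's start-site table for GRCm38.p6 (250 bases before to 50 after each start), and Crat, Acad9, Decr1, Acaa2, Hsd17b4 and Ppargc1b did not. Each window is written 5′ to 3′ on the gene's own strand. For Hadh, at chr3:131272052-131272351 on the minus strand, and Hadhb, at chr5:30155003-30155302 on the plus strand, capitals mark the GC-box letters GGGCGG on either strand.
Hadh: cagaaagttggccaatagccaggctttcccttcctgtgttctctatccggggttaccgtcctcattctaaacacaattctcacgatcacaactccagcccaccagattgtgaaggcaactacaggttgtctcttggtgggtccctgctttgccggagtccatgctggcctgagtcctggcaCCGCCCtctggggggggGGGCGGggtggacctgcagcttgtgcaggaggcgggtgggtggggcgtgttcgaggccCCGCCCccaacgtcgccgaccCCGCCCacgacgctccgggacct
Hadhb: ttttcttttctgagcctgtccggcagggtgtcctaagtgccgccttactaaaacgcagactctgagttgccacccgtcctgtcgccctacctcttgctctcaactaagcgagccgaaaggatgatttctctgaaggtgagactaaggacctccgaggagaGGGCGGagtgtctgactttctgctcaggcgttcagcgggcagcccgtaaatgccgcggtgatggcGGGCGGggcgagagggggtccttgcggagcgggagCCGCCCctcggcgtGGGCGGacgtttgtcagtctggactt
For Etfa, at chr9:55512194-55512493 on the minus strand, and Etfb, at chr7:43443822-43444121 on the plus strand, capitals mark CCAAT on either strand.
Etfa: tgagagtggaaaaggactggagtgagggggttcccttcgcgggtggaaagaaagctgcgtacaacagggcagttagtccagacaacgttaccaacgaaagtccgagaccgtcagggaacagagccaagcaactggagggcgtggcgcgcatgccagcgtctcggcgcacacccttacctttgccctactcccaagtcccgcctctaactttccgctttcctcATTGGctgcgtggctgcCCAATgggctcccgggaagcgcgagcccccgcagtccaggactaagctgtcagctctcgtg
Etfb: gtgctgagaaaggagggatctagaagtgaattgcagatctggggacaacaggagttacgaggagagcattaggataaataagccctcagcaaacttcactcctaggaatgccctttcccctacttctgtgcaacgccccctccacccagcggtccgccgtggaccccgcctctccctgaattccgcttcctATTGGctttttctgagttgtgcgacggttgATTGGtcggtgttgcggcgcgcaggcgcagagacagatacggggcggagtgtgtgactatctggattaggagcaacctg

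The GC-box letters occurred 4 times in the Hadh window and 4 times in the Hadhb window, and 21 of the 26 matched genes (80.8%) held them in a window, against 38.2% of all 27025 genes in the table. CCAAT was found in 14 of 26 (53.8%), against 41.1% of all genes. Etfa had CCAAT beginning 28 and 11 bases before its start, and Etfb had it 59 and 29 bases before. The windows of Hadha (chr5:30154931-30155230, minus strand) and Hadhb share 228 of their 300 bases, since their starts lie 273 bases apart and point away from each other. AGGTCA, the half-site bound by nuclear receptors such as the PPARs, was in the windows of Acadm, Acadvl, Cpt1a and Echs1 (15.4%, against 18.1% of all genes). CACGTG was in none of the 26, against 8.09% of all genes, and ACGTG was in 1, Acadvl, against 21.8%. All genes here means every gene of the start-site table, whatever its class or its level in these cells. The shares alone therefore show no trait particular to this list. These matches describe letters within the windows, and no site or factor was measured.

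In vitro, 30 of the 32 genes passed a filter on low values (FPKM of 1 or more in 3 or more libraries), and their levels were similar from library to library. Ehhadh, the peroxisomal bifunctional enzyme, lay between 0 and 0.0953 FPKM, and Ppargc1b, a coactivator of oxidative genes, between 0.287 and 0.468 FPKM, so neither was tested. The mean of the other 30 over the 9 libraries ranged from 6.82 FPKM for Acox3 to 232 FPKM for Etfb, with a median of 23.5 FPKM. Their coefficients of variation over all 9 libraries ran from 3.41% for Acads to 15.4% for Acox3. In the order of levels, 24 of the 29 neighbouring pairs had overlapping ranges. The gaps in that order stood below Etfb, below Acsl5, below Hadha, below Hsd17b4 and below Etfdh.

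**Figure D1:**
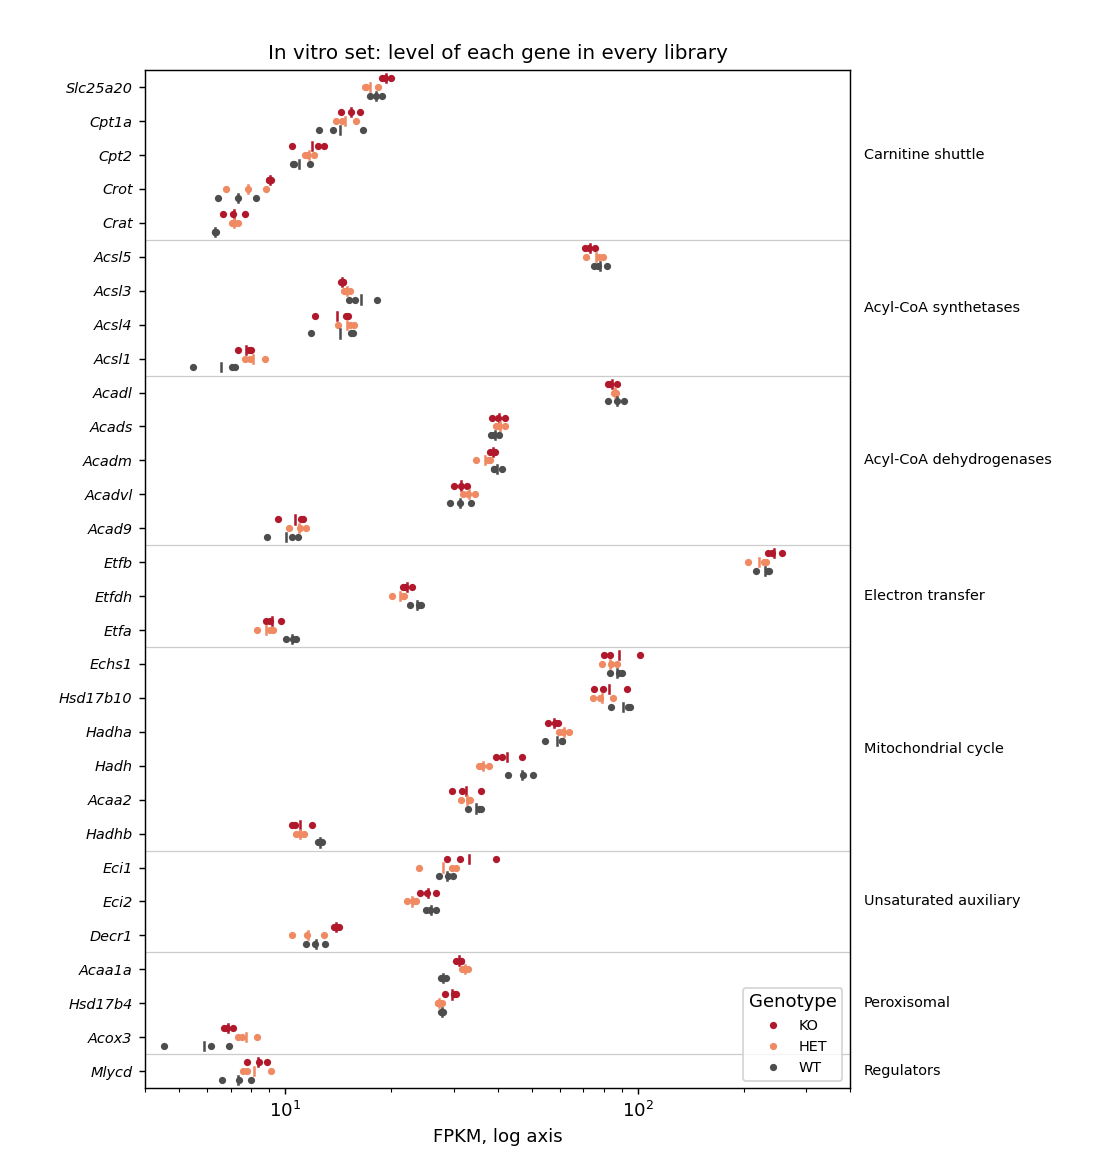
Level of each tested gene in every in vitro library, in FPKM on a log axis, grouped by role; points are libraries and short bars are means of 3 libraries for KO, HET and WT. Etfb stands highest at 206 to 257 FPKM and Acox3 lowest at 4.53 to 8.31 FPKM, and genotypes lie close together for most genes.

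The genes of the carnitine shuttle ranged from means of 6.88 FPKM for Crat, which handles acetyl groups, to 18.2 FPKM for Slc25a20, the carrier of acylcarnitines across the inner membrane. Slc25a20 had 20.0, 18.8 and 19.2 FPKM in KO cells, 18.3, 16.9 and 16.8 FPKM in HET cells and 18.1, 18.7 and 17.4 FPKM in WT cells. Cpt1a, which forms acylcarnitine at the outer membrane, averaged 15.3 ± 0.953 FPKM in KO, 14.8 ± 0.979 in HET and 14.2 ± 2.11 in WT cells (SD, n = 3 each). Cpt2, which turns acylcarnitine back into acyl-CoA inside, averaged 11.9 ± 1.27 FPKM in KO, 11.6 ± 0.341 in HET and 10.9 ± 0.717 in WT cells. The 3 genotypes overlapped for Cpt1a and Cpt2, while every KO library exceeded every HET and WT library for Slc25a20.

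Crot, the carnitine acyltransferase of peroxisomes, had 9.11, 8.975 and 9.004 FPKM in KO cells, 6.78, 8.82 and 7.85 FPKM in HET cells and 8.26, 7.35 and 6.45 FPKM in WT cells. Its 3 KO libraries lay closely together above all others, and its HET and WT libraries overlapped. On the log2(FPKM + 1) scale, which understates changes of low values, Crot differed by 0.27 between KO and WT (SE 0.109, adjusted p = 0.201), the smallest adjusted p of the list in that comparison. Crat had 7.12, 7.65 and 6.65 FPKM in KO cells, 7.03, 7.13 and 7.33 FPKM in HET cells and 6.30, 6.36 and 6.32 FPKM in WT cells. All KO and HET libraries of Crat stood above the WT ones, with a KO against WT difference of 0.15 (adjusted p = 0.359). For the 5 shuttle genes the KO against WT differences were between 0.09 and 0.27, and 0 of 5 passed the test. All 5 also lay above 0 on rescaling to TPM, with median-ratio size factors and after quantile normalization, with medians of 0.14, 0.07 and 0.06, against 0.11 as deposited. Of all 10877 tested genes, 6438 lay above 0 in this comparison. For HET against WT, 4 of the 5 shuttle genes lay above 0 as deposited and 2 of 5 after quantile normalization.

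Acsl5, the synthetase of the outer mitochondrial membrane and endoplasmic reticulum, made up 67.1% of the summed FPKM of the 4 synthetases over the 9 libraries. It had 75.7, 70.9 and 72.7 FPKM in KO cells, 79.9, 77.7 and 71.3 FPKM in HET cells and 75.3, 81.9 and 77.2 FPKM in WT cells, and the genotypes overlapped. Acsl1, the main synthetase of fat and heart, had 7.31, 8.002 and 7.88 FPKM in KO cells, 7.92, 7.66 and 8.72 FPKM in HET cells and 7.05, 7.20 and 5.47 FPKM in WT cells. WT replicate 3 was the lowest library, and all KO and HET libraries lay above all WT ones. The difference was 0.21 for KO against WT (adjusted p = 0.302) and 0.27 for HET against WT (adjusted p = 0.156). Acsl3, linked to lipid droplets, went the other way with 14.6, 14.3 and 14.6 FPKM in KO cells, 14.8, 15.3 and 14.7 FPKM in HET cells and 18.2, 15.2 and 15.8 FPKM in WT cells, a KO against WT difference of -0.16 (adjusted p = 0.310). Acsl4, which prefers arachidonic acid, ranged from 11.8 to 15.6 FPKM with overlapping genotypes.

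The 5 acyl-CoA dehydrogenases, which carry out the first step of the cycle for chains of different lengths, summed to 206 ± 4.09 FPKM in KO, 208 ± 0.436 in HET and 208 ± 2.05 in WT cells (SD, n = 3 each). Acadl, for long chains, was the most abundant at 41.5% of that sum and had 83.4, 87.4 and 82.4 FPKM in KO cells, 85.4, 86.6 and 86.4 FPKM in HET cells and 82.5, 87.2 and 91.7 FPKM in WT cells. The genotypes of Acadl overlapped fully. Acads, for short chains, averaged 40.1 FPKM over the 9 libraries, Acadm, for medium chains, 38.5 FPKM, Acadvl, for very long chains, 32 FPKM, and Acad9, better known as an assembly factor of respiratory complex I, 10.5 FPKM. Differences of the 5 genes lay between -0.05 and 0.07 for KO against WT and between -0.11 and 0.11 for HET against WT, and 0 of 5 passed the test.

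Etfb and Etfa encode the subunits of the electron transfer flavoprotein, and Etfdh the membrane enzyme that passes its electrons on to ubiquinone. Etfb had 240, 257 and 235 FPKM in KO cells, 228, 231 and 206 FPKM in HET cells and 217, 237 and 235 FPKM in WT cells. Etfa had 9.02, 9.69 and 8.78 FPKM in KO cells, 8.29, 9.19 and 9.01 FPKM in HET cells and 10.1, 10.5 and 10.7 FPKM in WT cells. All KO and HET libraries of Etfa lay below the 3 WT libraries, while the Etfb levels of KO and WT overlapped. Etfa differed by -0.17 between KO and WT (adjusted p = 0.286) and by -0.22 between HET and WT (adjusted p = 0.143). The ratio of Etfb to Etfa was 26.6 ± 0.148 in KO, 25.2 ± 2.36 in HET and 21.98 ± 0.5002 in WT cells (SD, n = 3 each). KO against WT gave p = 0.1 in a two-sided exact permutation test, the smallest p that 3 against 3 allows, and 0.375 after adjustment over 15 such tests of ratios, shares and sums. Etfdh averaged 22.1 ± 0.680 FPKM in KO, 21.1 ± 0.878 in HET and 23.6 ± 0.852 in WT cells.

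Hadh, the 3-hydroxyacyl-CoA dehydrogenase for medium and short chains, was the gene of the list that passed the test for HET against WT, 1 of 30, where 3.68% of all genes did. It had 39.7, 47.1 and 41.3 FPKM in KO cells, 37.7, 35.5 and 36.1 FPKM in HET cells and 50.6, 42.7 and 47.2 FPKM in WT cells. The 3 HET libraries lay below all KO and WT libraries, and KO and WT overlapped. Hadh fell in HET against WT by 0.35 on the log2 scale (SE 0.0855, adjusted p = 0.0462), and its differences were -0.13 for KO against WT (adjusted p = 0.432) and 0.22 for KO against HET (adjusted p = 0.275). The HET against WT call held under 6 of 18 alternative settings and ended under 12, with adjusted p between 0.0269 and 0.1502. It ended without HET replicate 1, 2 or 3, without WT replicate 1, 2 or 3 and without KO replicate 1 or 3.

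The summed level of 11 monocyte and macrophage markers moved between the same groups, at 653 to 997 FPKM in KO, 991 to 1189 in HET and 508 to 712 in WT cells, and 5 of the 9 that were tested rose in HET against WT. Of 11 neutrophil markers, 2 rose in HET against WT, with sums of 4319 to 7825 FPKM in KO, 6082 to 8540 in HET and 4724 to 6080 in WT cells. None of either list was at 0 in every library. Their part in the Hadh result was not tested, and in bulk RNA fewer cells of a type and less RNA per cell cannot be told apart.

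Echs1, the enoyl-CoA hydratase, had the highest mean level of the cycle over the 9 libraries, with 80.1, 101 and 83.7 FPKM in KO cells, 83.8, 87.3 and 79.2 FPKM in HET cells and 88.5, 83.7 and 90.4 FPKM in WT cells, and its genotypes overlapped. Its mean of 86.5 ± 6.69 FPKM was within the spread of that of Hsd17b10, 84.3 ± 8.04 (SD, n = 9 each), which was the higher of the pair in WT cells. Hsd17b10, a dehydrogenase that also serves isoleucine breakdown and mitochondrial tRNA processing, averaged 82.7 ± 9.31 FPKM in KO, 79.3 ± 5.12 in HET and 91.0 ± 6.06 in WT cells (SD, n = 3 each). Acaa2, the medium-chain thiolase, averaged 32.5 ± 3.13 FPKM in KO, 32.7 ± 1.05 in HET and 34.8 ± 1.63 in WT cells. Hadha and Hadhb encode the subunits of the trifunctional protein, which handles long chains. Hadha ranged from 54.7 to 63.9 FPKM with overlapping genotypes. Hadhb had 10.44, 11.9 and 10.7 FPKM in KO cells, 11.3, 10.7 and 11.02 FPKM in HET cells and 12.3, 12.7 and 12.5 FPKM in WT cells, with every KO and HET library below every WT library (KO against WT -0.17, adjusted p = 0.258). The Hadha to Hadhb ratio was 5.27 ± 0.384 in KO, 5.59 ± 0.0538 in HET and 4.71 ± 0.294 in WT cells, and HET against WT gave p = 0.1 in the exact permutation test (0.375 after adjustment). Of the 6 cycle genes, 5 had a difference below 0 for KO against WT, with a median of -0.11 and 0 calls. Of all 10877 tested genes, 4439 lay below 0. On rescaling to TPM 2 of the 6 lay above 0, and with median-ratio size factors 0 did. The median over all tested genes was 0.0661 as TPM and 0.0075 with those size factors, against 0.0395 as deposited.

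**Figure D2:**
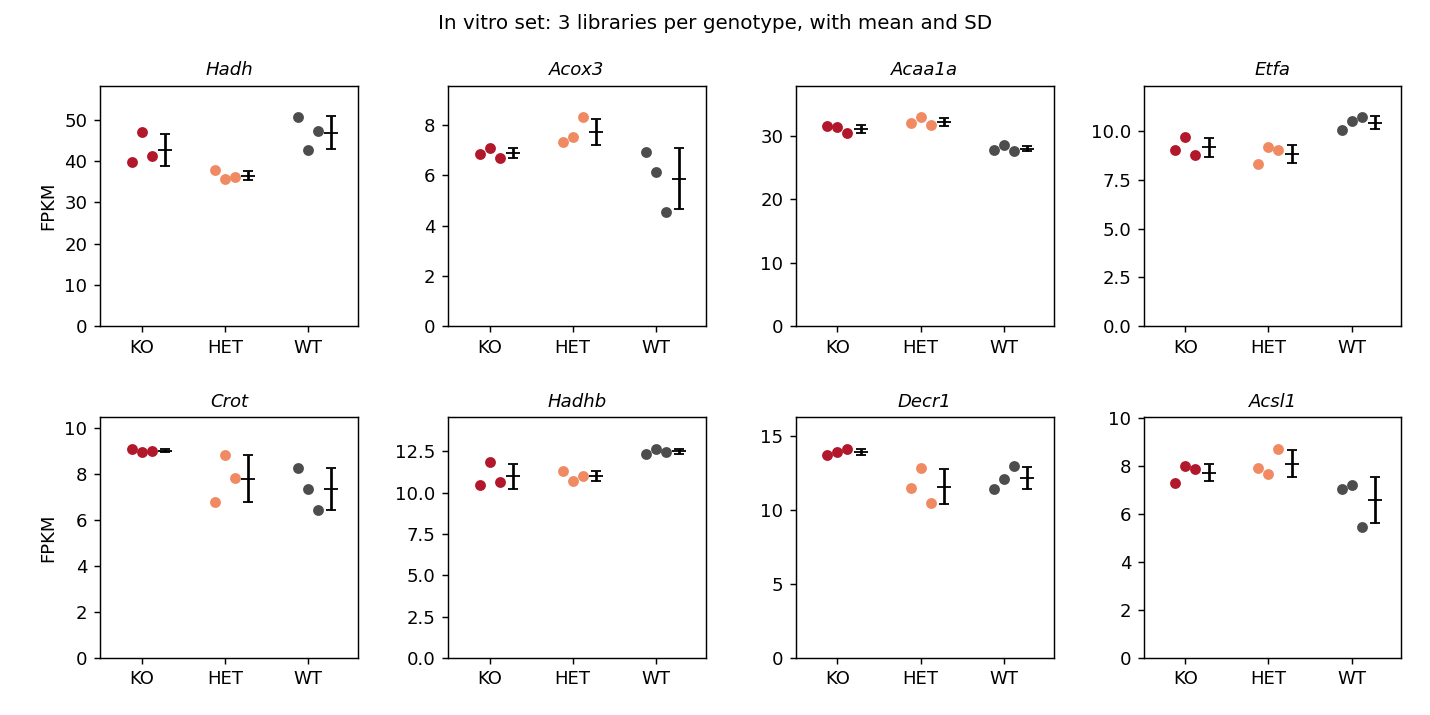
FPKM of 8 genes in the 3 in vitro libraries of each genotype, with mean and SD beside the points and axes starting at 0. The HET libraries of Hadh (35.5 to 37.7 FPKM) lie below all WT libraries (42.7 to 50.6 FPKM), and the gaps of the other 7 genes did not pass the test.

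The auxiliary enzymes prepare double bonds for the cycle. Decr1, the dienoyl-CoA reductase, had 13.8, 13.9 and 14.2 FPKM in KO cells, 11.5, 12.8 and 10.5 FPKM in HET cells and 11.4, 12.1 and 13.0 FPKM in WT cells. The KO libraries of Decr1 were closely spaced above all others, with a difference of 0.18 against WT (adjusted p = 0.286) and 0.25 against HET (adjusted p = 0.223). Eci1, the mitochondrial enoyl-CoA isomerase, had 31.2, 39.7 and 28.7 FPKM in KO cells, 29.6, 30.5 and 23.9 FPKM in HET cells and 27.3, 29.0 and 29.8 FPKM in WT cells. KO replicate 2 and HET replicate 3 of Eci1 stood out, and the genotypes overlapped. Eci2, an isomerase of peroxisomes and mitochondria, averaged 25.4 ± 1.37 FPKM in KO, 22.9 ± 0.657 in HET and 25.8 ± 0.812 in WT cells (SD, n = 3 each), with an adjusted p of 0.179 for HET against WT.

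Among peroxisomal genes, Acaa1a, a thiolase, had 31.5, 31.4 and 30.4 FPKM in KO cells, 32.1, 33.0 and 31.8 FPKM in HET cells and 27.9, 28.6 and 27.7 FPKM in WT cells. Every KO and HET library of Acaa1a exceeded every WT library, with differences of 0.15 for KO (adjusted p = 0.236) and 0.20 for HET (adjusted p = 0.101). Its exons overlap those of Myd88 on the other strand. The strand setting is not given in the sources used here, so reads from the shared stretch cannot be told apart. The same holds for Acadvl with Dvl2, Echs1 with Paox, Acsl5 with Zdhhc6, Crat with Dolpp1 and Gm16323, and Hadha with Garem2. It also holds for Acsl1 with Gm45244, Crot with Gm37153, Etfdh with 4930579G24Rik, Eci2 with Gm16984 and Acox3 with 4931431C16Rik. On the same strand, exons of Acsl3 overlap those of Utp14b, which a strand setting alone would not resolve. Crot with Gm27941, Acad9 with Gm43079, and Etfb with Gm45233 and Mir7051 overlap in that way too. Acox3, an oxidase of branched chains, had 6.83, 7.09 and 6.69 FPKM in KO cells, 7.33, 7.53 and 8.31 FPKM in HET cells and 6.91, 6.13 and 4.53 FPKM in WT cells. Its HET libraries lay above the others and WT replicate 3 was the lowest, and HET against WT gave 0.36 (adjusted p = 0.113). Without WT replicate 1, Acox3 was called in that comparison (adjusted p = 0.0430). Hsd17b4, the D-bifunctional protein, averaged 29.7 ± 1.16 FPKM in KO, 27.3 ± 0.495 in HET and 27.8 ± 0.110 in WT cells (SD, n = 3 each). Mlycd, which degrades malonyl-CoA, an inhibitor of the carnitine shuttle, had 8.41, 8.84 and 7.79 FPKM in KO cells, 9.09, 7.59 and 7.77 FPKM in HET cells and 7.36, 6.60 and 7.99 FPKM in WT cells, which overlapped.

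Over the whole list in vitro, KO and WT cells differed little. By limma with Benjamini-Hochberg adjustment over all 10877 tested genes, 0 of the 30 genes passed an adjusted p of 0.05 for KO against WT, where 2.99% of all genes did. At an unadjusted p under 0.05 there were 2 of 30 (6.67%), Crot and Acaa1a, against 19.4% of all genes. The median difference was 0.02 for the list and 0.04 for all tested genes, and the extremes were -0.17 for Hadhb and 0.27 for Crot. The 95% interval of the difference lay within a 1.5-fold change in either direction for 30 of 30 genes and for 86.2% of all genes, and its widest bounds over the list were -0.35 for Etfa and 0.51 for Crot. The KO and WT libraries did not overlap for 10 genes (33.3%), 7 higher and 3 lower in KO, against 22.9% of all genes. The summed FPKM of the list was 1117 ± 47.0 in KO, 1075 ± 26.5 in HET and 1111 ± 3.46 in WT cells (SD, n = 3 each). KO and WT sums overlapped (exact permutation test, two-sided, p = 1.0). The 3 HET sums (1045 to 1095 FPKM) lay below the 3 WT sums (1109 to 1115 FPKM), with p = 0.1 in the same exact permutation test, the smallest it allows, and 0.375 after adjustment over 15 tests. As a share of all FPKM of a library, the list made up 0.2178 to 0.2261% in HET and 0.2065 to 0.227% in WT cells. These shares overlapped, so the gap between the sums depends on the scaling of the libraries.

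For HET against WT, 1 of 30 genes passed, Hadh, a share near that of all genes (3.68%). The other 5 genes at an unadjusted p under 0.05 were Acaa1a, Acox3 and Acsl1, with differences above 0, and Etfa and Eci2, with differences below 0. The median difference was -0.03, against 0.04 for all genes, and 29 of 30 intervals lay within 1.5-fold (85% for all genes), with Acox3 reaching 0.63. Groups did not overlap for 10 genes (33.3%, with 29.1% of all genes), 4 higher and 6 lower in HET. For KO against HET, 0 of 30 passed, where 1.99% of all genes did, with 2 at an unadjusted p under 0.05, Decr1 and Hadh. All 30 intervals lay within 1.5-fold (89.2% for all genes). Groups did not overlap for 12 of 30 genes, with 22.4% of all genes not overlapping, 8 higher and 4 lower in KO. KO against WT and HET against WT share the WT libraries, so their values are not independent of each other.

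**Figure D3:**
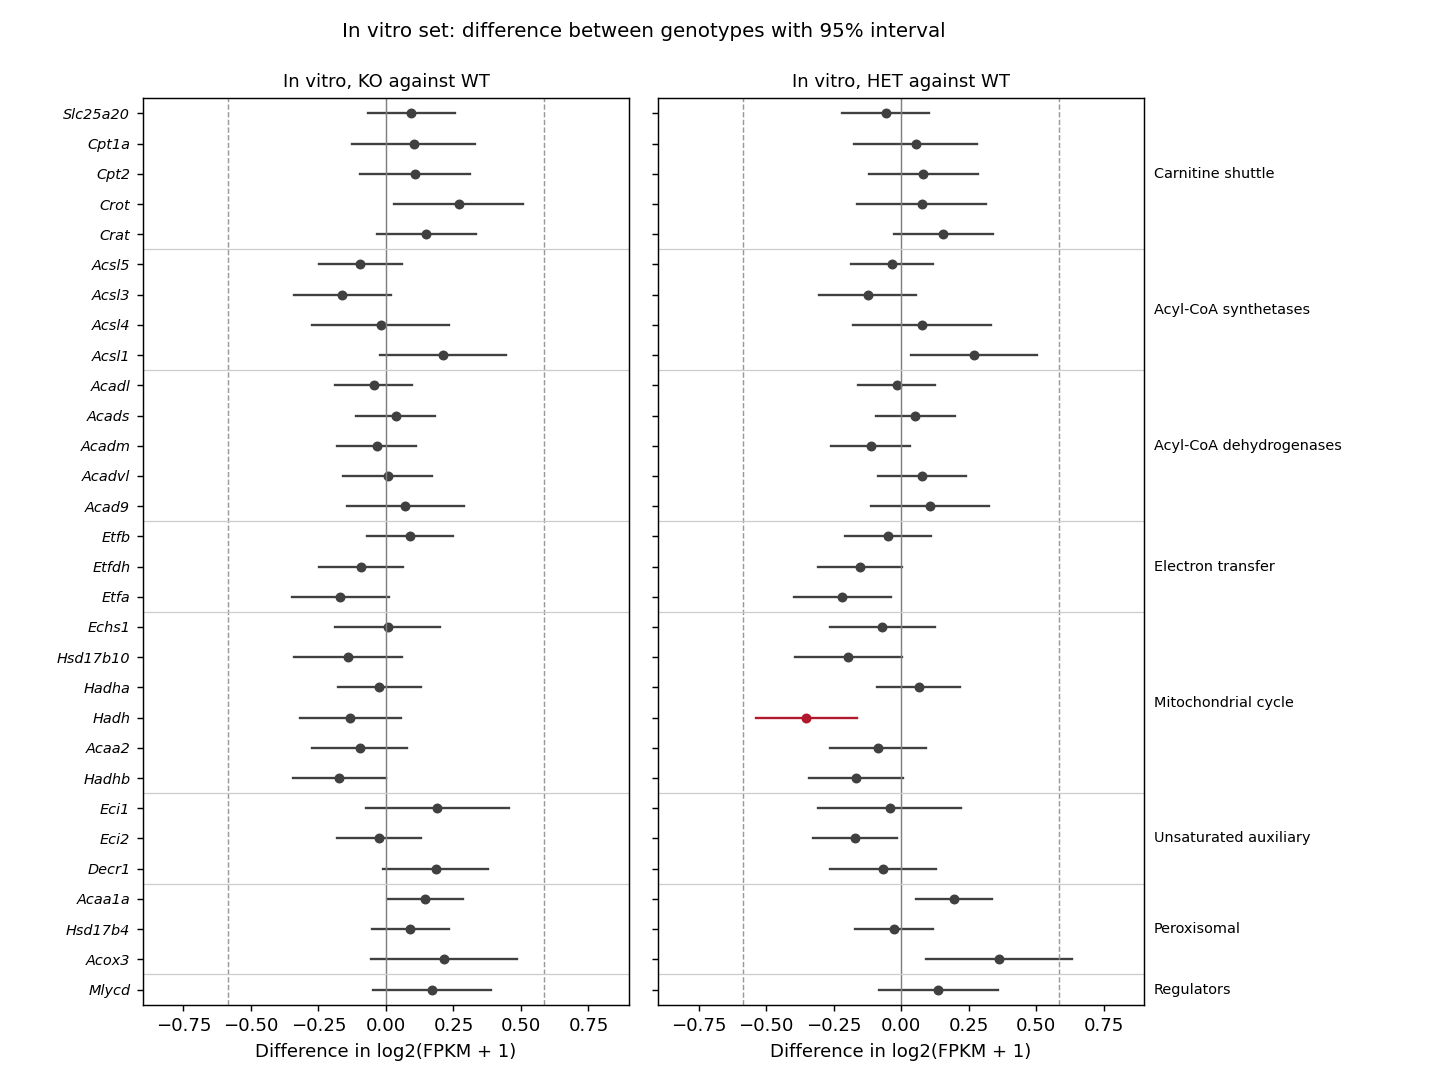
Differences in log2(FPKM + 1) between in vitro genotypes with 95% intervals from limma, KO against WT at left and HET against WT at right; dashed lines mark a 1.5-fold change and red marks an adjusted p under 0.05. Hadh in HET cells, at -0.35, is the single red value, and the upper interval of Acox3 in HET cells is the single one to cross a dashed line.

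Among other genes around the pathway, Ppard, Bdh1 and Prkab2 fell and Rxrb rose in KO against WT cells in vitro. Ppard, the fatty acid sensing nuclear receptor PPAR delta, had 4.51, 4.92 and 5.29 FPKM in KO cells, 6.87, 8.44 and 9.49 FPKM in HET cells and 10.005, 8.95 and 9.55 FPKM in WT cells. All KO libraries lay below all HET and WT libraries, and Ppard fell by 0.83 on the log2 scale in KO against WT (adjusted p = 0.00319) and by 0.64 against HET (adjusted p = 0.0114). The KO against WT call of Ppard held in 18 of 18 alternatives, with adjusted p from 0.00211 to 0.0240, and the KO against HET call held in 15 of 18, ending without KO replicate 1 or HET replicate 2 or 3. Bdh1, a mitochondrial enzyme of ketone bodies, had 2.36, 1.98 and 1.84 FPKM in KO cells, 4.15, 3.32 and 4.02 FPKM in HET cells and 3.47, 3.67 and 3.20 FPKM in WT cells. Its KO libraries were the 3 lowest, and it fell by 0.54 against WT (adjusted p = 0.0234) and by 0.66 against HET (adjusted p = 0.00777). The WT call of Bdh1 ended under 7 of 17 alternatives, among them leaving out KO replicate 1 or 3 or WT replicate 2 (adjusted p up to 0.121), and the HET call under 2 of 17, leaving out KO replicate 3 or HET replicate 3 (up to 0.0614).

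Prkab2, a subunit of the energy sensor AMPK, had 0.891, 0.909 and 1.01 FPKM in KO cells, 1.03, 1.43 and 1.60 FPKM in HET cells and 1.80, 1.79 and 1.92 FPKM in WT cells. KO libraries lay below all others, and Prkab2 fell by 0.55 against WT (adjusted p = 0.0239), a call that ended without KO replicate 1 or 3 or WT replicate 2 or 3 (adjusted p up to 0.108). Rxrb, a partner of nuclear receptors, had 55.7, 54.1 and 53.9 FPKM in KO cells, 49.5, 51.6 and 52.4 FPKM in HET cells and 45.2, 45.1 and 40.3 FPKM in WT cells. It rose by 0.32 against WT (adjusted p = 0.0331) with no overlap between KO and the other genotypes, and the call ended under 10 of 18 alternatives (adjusted p up to 0.147), including the loss of KO replicate 1 or 3, HET replicate 2 or 3, or WT replicate 2 or 3. These 4 were the called genes among further genes of fatty acid and ketone oxidation (33 of 39 tested, 1 down in KO against WT), of fatty acid binding, activation and thioesterases (20 of 36 tested, 0 called) and of regulation (20 of 26 tested, 1 up and 2 down). HET against WT gave 0 calls in the 3 lists.

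Markers of stem and progenitor cells moved in the same comparisons. Of 9 tested, Hlf and Flt3 rose in KO against WT, and Hlf, Flt3 and Mecom rose in KO against HET. Hlf, a transcription factor of hematopoietic stem cells, had 2.63, 2.84 and 2.42 FPKM in KO cells, 0.551, 0.873 and 0.571 FPKM in HET cells and 0.561, 0.945 and 0.688 FPKM in WT cells, a difference of 1.07 against WT (adjusted p = 0.00103). Flt3, a receptor of progenitors, had 2.71, 2.80 and 2.67 FPKM in KO cells, 1.12, 1.68 and 1.64 FPKM in HET cells and 1.63, 1.37 and 1.18 FPKM in WT cells (0.64 against WT, adjusted p = 0.0168). The KO libraries of both genes lay above all others. The 11 markers summed to 513 to 534 FPKM in KO, 493 to 530 in HET and 465 to 475 in WT cells, and none was at 0 in every library. Against WT, 1 of 9 monocyte and macrophage markers, Ccr2, also rose in KO, and 1 of 4 megakaryocyte markers, Pf4, fell. Against HET, 4 of those 9 and 2 of 11 neutrophil markers fell in KO. The part of these cell types in the Ppard, Bdh1, Prkab2 and Rxrb results was not tested.

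In cells sorted directly from bone marrow, most values of these genes were either at 10 FPKM or more or listed at 0, and which gene was at 0 varied from library to library. Of the 248 values of 31 genes in 8 libraries, 85 were listed at 0, 20 lay above 0 and below 1 FPKM, and 114 were at 10 FPKM or more. Between 6 and 19 of the 31 genes were at 0 in a library, with 9, 8 and 7 in KO, 19 and 15 in HET and 11, 10 and 6 in WT. Library by library, the share of the list at 0 was above that of the 4667 broadly expressed genes, although the list also holds genes of lower in vitro level than those. The genes at FPKM of 1 or more in all 8 libraries were Acsl5, Etfa, Etfb, Hsd17b10 and Acaa1a, and Crat, Acsl3, Hadh and Ppargc1b reached 1 FPKM in a single library each. An exact 0 in such libraries may be a failed estimate, so values are given per library.

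**Figure D4:**
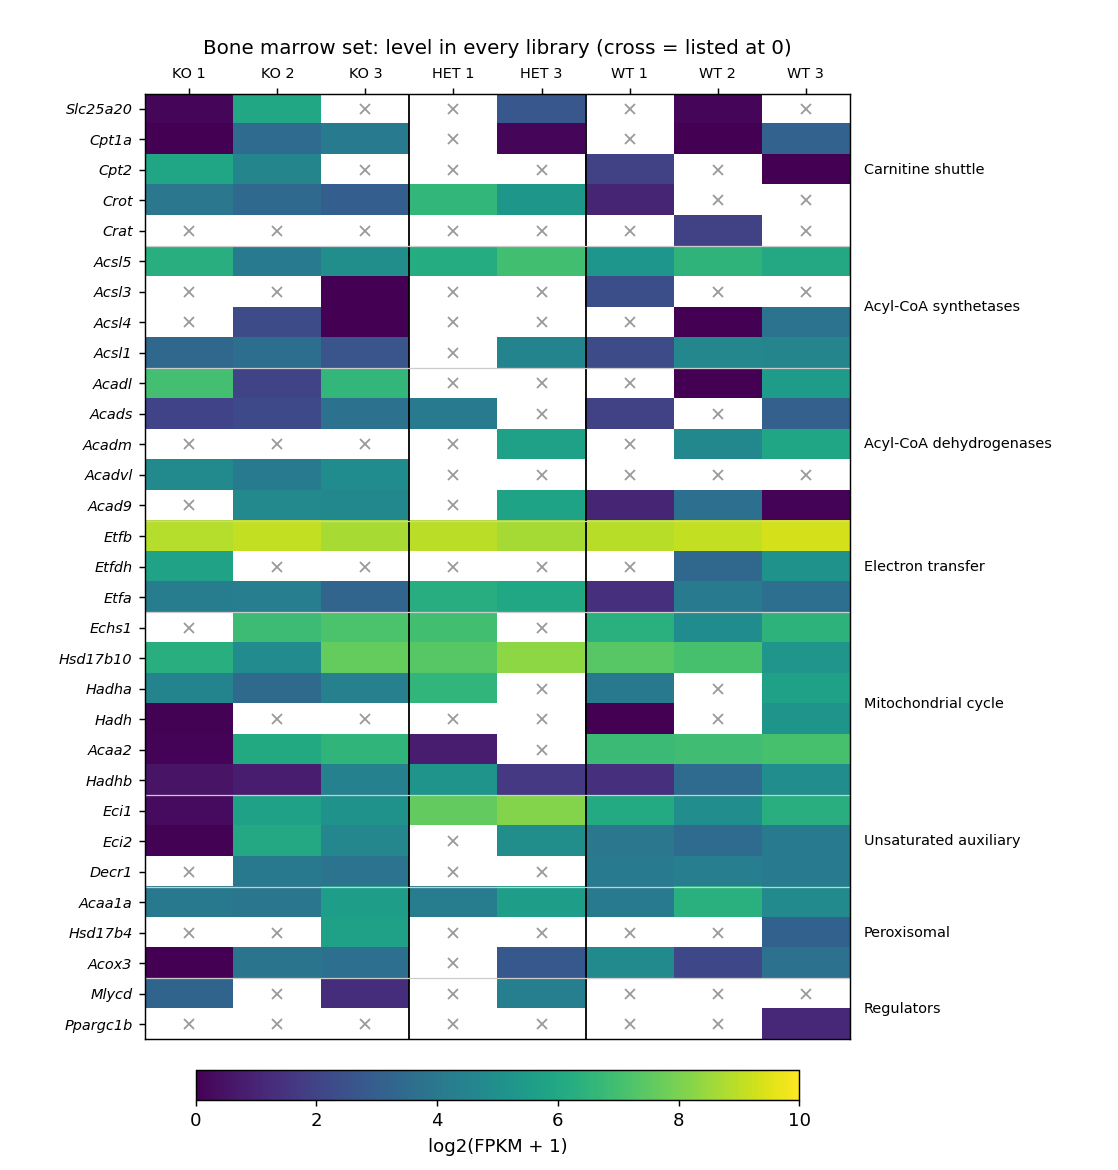
Level of 31 genes in the 8 bone marrow libraries as log2(FPKM + 1), grouped by role, with KO libraries at left, HET in the middle and WT at right; crosses mark values listed at 0. Etfb is high in every library, and 19 and 15 genes carry a cross in the HET libraries.

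Etfb was again the highest, with 473, 543 and 416 FPKM in KO, 494 and 399 FPKM in HET and 489, 537 and 657 FPKM in WT cells, which overlapped (KO against WT -0.23, 95% interval -0.96 to 0.50). Acsl5, Hsd17b10 and Acaa1a ranged over 16.6 to 125 FPKM, 27.2 to 311 FPKM and 14.3 to 80.1 FPKM. Acadvl was the gene with the smallest p for KO against WT. It had 25.9, 15.7 and 27.8 FPKM in KO cells and was listed at 0 in both HET and all 3 WT libraries, whereas in vitro it lay at 29.2 to 34.5 FPKM in all 9 libraries. Its fitted difference was 4.55 on the log2(FPKM + 1) scale, which depends on the pseudocount (SE 1.08, adjusted p = 0.417), and it passed the filter only through the KO libraries. Of the broadly expressed genes, 21.9, 9.90 and 12.3% were at 0 in KO, 51.8 and 38.6% in HET and 14.1, 11.4 and 10.8% in WT libraries, shares that overlapped between KO and WT. Their part in the Acadvl values was not tested.

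Crot had 14.8, 9.62 and 6.96 FPKM in KO cells, 96.5 and 38.4 FPKM in HET cells and 1.08, 0 and 0 FPKM in WT cells, with no overlap between any genotypes. Its differences were 3.11 for KO against WT (adjusted p = 0.845) and 5.602 for HET against WT (adjusted p = 0.165). Acadm was listed at 0 in all 3 KO libraries, at 0 and 51.6 FPKM in HET and at 0, 24.7 and 59.5 FPKM in WT. Acadl had 130, 3.11 and 98.7 FPKM in KO, 0 and 0 FPKM in HET and 0, 0.0199 and 43.8 FPKM in WT. The groups overlapped for Acadm and for KO against WT of Acadl.

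Cpt2 had 58.5, 22.6 and 0 FPKM in KO, 0 and 0 FPKM in HET and 2.83, 0 and 0.0135 FPKM in WT. Acaa2 had 0.0815, 66.2 and 92.9 FPKM in KO, 0.674 and 0 FPKM in HET and 113, 120 and 137 FPKM in WT, so WT libraries were above all others. Eci1 had 0.224, 52.2 and 32.9 FPKM in KO, 192 and 285 FPKM in HET and 67.6, 28.7 and 75.3 FPKM in WT, with HET highest. Mlycd had 8.33, 0 and 1.48 FPKM in KO, 0 and 18.7 FPKM in HET and was listed at 0 in the 3 WT libraries. KO replicate 1 was the low KO library for Acaa2 and Eci1 and the high one for Cpt2 and Mlycd. Slc25a20, Acsl4 and Hsd17b4 each exceeded 1 FPKM in 2 libraries.

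None of the 24 genes that passed the filter was called in bone marrow, and all of their intervals were wide. By limma, 0 of 24 passed for KO against WT, where 0% of 7246 genes did (0 genes, with 370 at an unadjusted p under 0.05, of which 2 were in the list, Acadvl and Crot). For HET against WT 0 of 24 passed, where 0.262% of all genes did, and for KO against HET 0 of 24, where 0.166% did. The groups did not overlap for 4 genes in KO against WT (16.7%, with 12.3% of all genes), 6 of 24 in HET against WT (with 30.1% of all genes) and 5 in KO against HET (20.8%, with 27.9%). No 95% interval lay within 1.5-fold, and the widest reached -10.6 and 9.81. The median differences of the list were -0.31, -0.25 and 0.71 in these comparisons, against -0.18, -0.99 and 0.83 for all tested genes, whose median thus lay below 0 for HET against WT. On simulated data of this design 1% of genes changed by 2 on the log2 scale were recovered in bone marrow KO against WT, and 100% in vitro. Of 11 neutrophil markers, 9 were tested and 0 were called in any comparison of this set. Their sums were 136100 to 211400 FPKM in KO, 131100 to 132200 in HET and 6283 to 56020 in WT cells, and none was at 0 in every library. S100a8 made up most of these sums in KO and HET cells and in WT replicates 1 and 2 (33970 and 28260 FPKM). In WT replicate 3 it did not (837 FPKM). Elane and Prtn3 were highest in WT replicate 1. Their part in the values of the list was not tested.

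**Figure D5:**
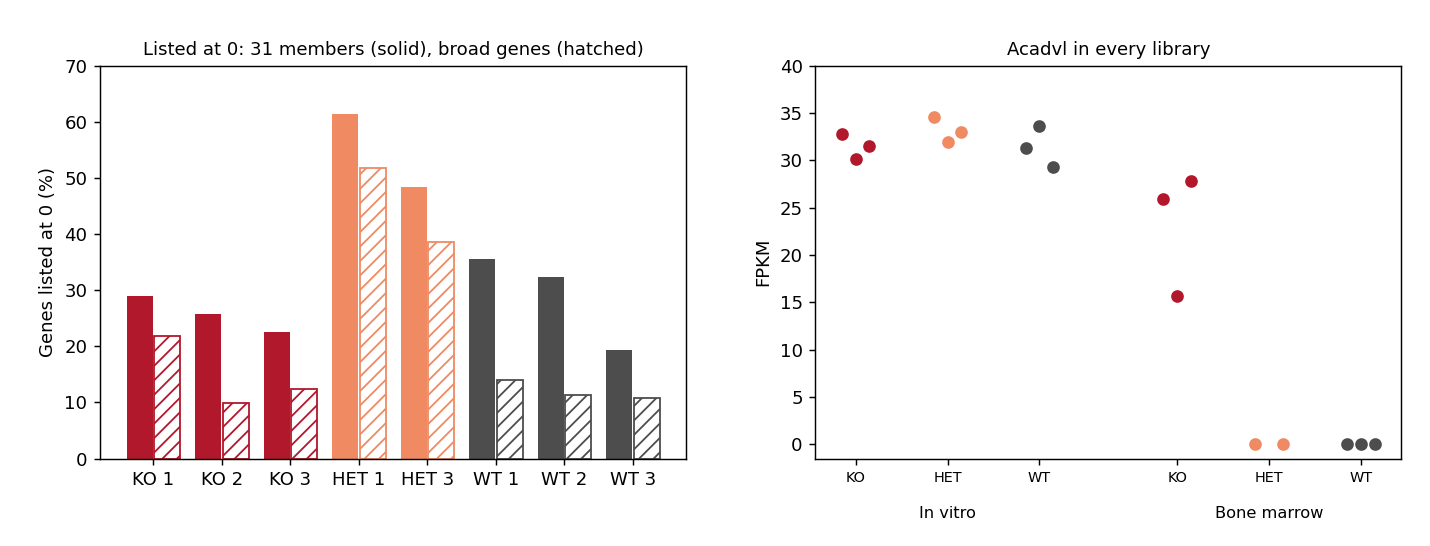
At left, the share of the 31 genes (solid) and of 4667 broadly expressed genes (hatched) listed at 0 in each bone marrow library, in percent; at right, Acadvl FPKM in every library of both sets. Zeros are most frequent in HET libraries (51.8% and 38.6% of the broadly expressed genes), and Acadvl is at 15.7 to 27.8 FPKM in KO and at 0 in HET and WT bone marrow.

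The KO against WT difference was compared between the sets in a joint limma fit over 6915 genes that passed the filter in both tables. The in vitro difference minus that in bone marrow passed for 1 of 24 genes, where 0.738% of all genes did. That gene was Acadvl, with 0.01 in vitro, 4.55 in bone marrow and -4.55 between them. Acadvl passed the bone marrow filter only through its 3 KO libraries, the other 5 being listed at 0, so it had to differ there and its values are a description. It no longer passed when any 1 of the 3 was left out. The joint fit also pools the small in vitro spread with that of bone marrow. With the spread of each set estimated separately, Acadvl had an adjusted p of 0.506 and 0 of 6915 genes were called.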

How the data were processed

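Bulk RNA sequencing of sorted mouse bone marrow cells was analysed in 2 tables, an in vitro set of 9 libraries and a bone marrow set of 8. TRIzol extraction and a VAHTS Universal library kit were used, per the labels' protocols. The submitters' processing notes name the build mm10. The deposited values are the authors' FPKM, as the file headers say, and no aligner, counter, annotation or strand setting is given in the sources used here. FPKM hold no raw counts and shift as a whole where single transcripts dominate a library, as S100a8 did with up to 19.0% of the FPKM in bone marrow. Groups were compared within a table, since scaling may differ between tables.

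Tests used R 4.3.3 and limma 3.58.1 (with statmod 1.5.0) on log2(FPKM + 1), with trend and robust moderation. Genes that reached 1 FPKM in 3 or more libraries were kept. A fit held all genotypes of a table, with no block, and Benjamini-Hochberg adjustment over all tested genes at 0.05. Ratios were compared by exact permutation tests (scipy 1.17.1). Intervals are at 95% and measure spread between libraries. The fits were tested on normal values drawn from the mean and spread of each gene, without added zeros. There 95% of genes changed by 1 on the log2 scale in KO against WT were recovered in vitro and 0% in bone marrow. No 2 libraries held identical values.

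The members, gene lists and tests were chosen with earlier results of these data known. Values per library are given for called members, for the 8 members of smallest p for KO against WT in each table, and for the highest member of each role. Of other pathway lists, called genes are named. Alternatives were another pseudocount (0.1), 2 other filters, 3 other scalings, the compared groups alone, the replicate number as a block and leaving out each library. Keeping only genes above 0 in every library, and estimating the spread of each set separately, were added after seeing the data.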

Additional observations from a re-analysis of the deposited data

Results flagged for a closer look

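Acadvl, the very-long-chain acyl-CoA dehydrogenase, stood out in the comparison of KO against WT changes between the sets, with -4.55 on the log2(FPKM + 1) scale (in vitro minus bone marrow) in a joint limma fit. Its bone marrow values were 25.9, 15.7 and 27.8 FPKM in KO libraries and 0 in the 2 HET and 3 WT libraries, so all 3 KO libraries stood above all others. It passed the bone marrow filter only through those 3 libraries and not when any 1 of them was left out, so the call of the joint fit says nothing beyond these values. The joint fit pools the spread of both sets, and with the spread of each set estimated separately the adjusted p was 0.506 and 0 of 6915 genes were called, against 51. Between 9.90 and 51.8% of 4667 broadly expressed genes were also listed at 0 in a bone marrow library, and the part of such zeros in the Acadvl values was not tested. Exons of Acadvl overlap those of Dvl2 on the other strand.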

How the results depend on the processing

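The counts of members called stayed at 0 in every alternative for KO against WT and KO against HET in vitro and for the 3 bone marrow comparisons. For HET against WT in vitro the count of 1 became 0 without a filter on low values, on rescaling to TPM, with only the compared groups in the fit and with the replicate block, and ranged from 0 to 1 over libraries left out in turn. The cause was not tested. For the change between the sets the count of 1 became 0 with the spread of each set estimated separately and ranged from 0 to 2 over libraries left out. It was 0 without bone marrow KO replicate 1 or 2, Cpt2 replaced Acadvl without KO replicate 3, and Crot joined without HET replicate 1 or 3. The calls of Cpt2 and Crot came from the same joint fit, which pools unlike spreads, and were not refitted with separate spreads. KO replicate 3 was the only bone marrow KO library with Cpt2 at 0. Of 404 refits of 24 named results, 365 kept their direction and side of the threshold, 39 kept direction but lost the call, and none reversed. The 365 include refits of results that were not called and stayed so, and thus do not measure how firm the calls were. Among called results, the call ended in 0 of 18 refits for Ppard (KO against WT) and in 12 of 18 for Hadh (HET against WT). Refits in which a gene failed the filter were not counted. The labels do not say whether replicate numbers pair the libraries. Same-numbered libraries' deviations correlated at -0.30 to 0.18 in vitro (3 of 9 above 0.1) and -0.02 to 0.03 in bone marrow. Deviations from the mean of 2 or 3 libraries are tied to each other, so these values cannot settle whether libraries were paired. With the replicate block, 172, 234 and 160 genes were called in vitro for KO against WT, HET against WT and KO against HET, against 325, 400 and 216 without it; leaving out libraries gave 66 to 475, 84 to 628 and 73 to 344. No filter gave 152 for KO against WT and 250 for HET against WT, only the compared groups gave 175 and 261, and a filter at FPKM of 5 gave 136 for KO against HET. In bone marrow, leaving out libraries gave 0 to 4 calls for KO against WT (0 otherwise, 2 under quantile normalization), 0 to 323 for HET against WT (19; 35 with a pseudocount of 0.1) and 0 to 330 for KO against HET (12; 31 with that pseudocount, 6 without a filter). The block, the compared groups alone and genes above 0 in every library each gave 0 for the HET comparisons there. The change between the sets had 51 calls, against 30 with the filter at 5, 25 under quantile normalization, 24 with the block and 19 to 135 over libraries left out. In bone marrow the median over all genes for KO against WT was -0.18 as deposited, -0.03 under quantile normalization and -0.34 as TPM. The bone marrow set had 2 or 3 libraries a group and many values at 0, and no interval of the list lay within 1.5-fold there. The absence of calls in that set therefore does not show that levels were unchanged.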
